A study of Mus musculus with 6 samples.

Results

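The 8 genes described here encode the route from membrane phospholipid to prostaglandin E2 and its cAMP-raising receptors: Pla2g4a, Ptgs1, Ptgs2, Ptges, Ptges2, Ptges3, Ptger2 and Ptger4. They were selected by gene symbol, as members of 1 pathway, from the deposited table of 48897 genes, with earlier results of these data known. All 8 passed the low-count filter and were among the 18563 genes tested. RNA was sequenced from C57BL/6 mouse embryonic fibroblasts at passages 5 to 7, a primary connective-tissue culture. TC cells had received TNF-α together with the translation inhibitor cycloheximide (2 libraries), TCZ cells the same combination plus the pan-caspase inhibitor z-VAD-fmk (2 libraries), and control cells PBS (2 libraries). The series concerns apoptosis and necroptosis. The labels state neither dose nor duration of treatment. No group had TNF-α or cycloheximide alone, so the parts of either agent cannot be told apart; TCZ differs from TC by z-VAD-fmk. Whether the 2 libraries within a group are separate cultures is not stated, and p-values then reflect only how far these libraries spread, which may be technical variation.

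In this pathway cytosolic phospholipase A2α, the product of Pla2g4a, releases arachidonic acid from membranes. The cyclooxygenases COX-1 (Ptgs1, expressed constitutively in many cells) and COX-2 (Ptgs2, an immediate-early gene that cytokines and growth factors induce in fibroblasts) turn arachidonic acid into prostaglandin H2. Prostaglandin E synthases (Ptges, Ptges2 and Ptges3) convert it into prostaglandin E2, which signals through receptors that include EP2 (Ptger2) and EP4 (Ptger4), both coupled to Gs and adenylyl cyclase. These are measurements of mRNA; neither protein nor prostaglandin was measured.

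Counted reads per library were 49560566 and 50854810 in TC, 52909926 and 24922627 in TCZ, and 46509236 and 26834352 in control. The second TCZ and second control libraries stood apart by depth and by the small RNA Rn7s1, which had 5704 and 6106 counts in TC, 5789 and 4 in TCZ, and 4916 and 1338 in control. All 11 fibroblast markers had counts in every library, with summed levels of 37070 to 37360 CPM (counts per 1000000 reads, TMM-scaled) in TC, 38620 to 41770 in TCZ and 38430 to 41490 in control. The sum is carried by a few abundant genes, and single markers moved: in TC 2 were higher and 6 lower than in control, among them Pdgfrb (log2 fold change -1.75, edgeR adjusted p = 4.57e-15), and in TCZ 1 was higher and 2 lower, Pdgfra by -2.67 (adjusted p = 1.17e-16). Markers of other cell types were low but not equal between groups. The 7 epithelial markers summed to 75.1 to 82.1 CPM in TC, 13.4 to 17.8 in TCZ and 16.7 to 19.4 in control. No epithelial marker was at 0 in TC, against 1 at 0 in each other library. Krt19 made up 63.7 to 69.4 CPM of the sum in TC, 11.2 to 15.2 in TCZ and 14.0 to 16.6 in control. Of 5 tested epithelial markers, 4 were higher and 0 lower in TC than in control. In TCZ against TC, 0 were higher and 3 lower. Epcam averaged 0.285 CPM in TC, 0.588 in TCZ and 0.0269 in control. The sum of 5 endothelial markers was 139.4 to 146.2 CPM in TC, 55.7 to 56.5 in TCZ and 11.8 to 12.5 in control, of which Kdr made up 138 to 144.3 CPM in TC, 39.0 to 40.7 in TCZ and 9.11 to 9.62 in control. The other tested endothelial markers went the other way between treatments: Pecam1 (log2 fold change 6.22), Tek (2.32) and Cdh5 (1.30) were higher in TCZ than in TC, Tek was lower in TC than in control (-1.17), and Tie1 was at 0 in all but 1 library. The sum of 8 macrophage and leukocyte markers was 12.0 to 14.5 CPM in TC, 24.5 to 27.2 in TCZ and 15.5 in both control libraries. Of 4 mast cell markers, Cpa3, Mcpt4 and Fcer1a were at 0 in all libraries, and the sum was 0.762 to 1.09 CPM in TC, 0.412 to 0.827 in TCZ and 0 to 0.199 in control. The part these differences play in the results below was not tested, and in bulk RNA fewer cells of a type and less RNA per cell cannot be told apart.

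Compared per length, by RPKM (reads per kilobase of gene and 1000000 counted reads), Ptgs2 was the most abundant of the 8 genes in every group and Ptger2 the least. Ptgs2 averaged 671 RPKM in TC and 692 RPKM in TCZ, against 117 RPKM in control. Next came Ptges3 (41.6 RPKM in TC, 43.0 in TCZ and 67.2 in control) and Pla2g4a (35.9 RPKM in TC, 29.6 in TCZ and 40.1 in control). The middle of the order differed between groups: Ptges, Ptger4, Ptgs1, Ptges2 in TC (27.7, 9.80, 7.21 and 6.24 RPKM), Ptges, Ptgs1, Ptger4, Ptges2 in TCZ (14.2, 8.89, 6.00 and 5.93 RPKM), and Ptgs1, Ptges, Ptger4, Ptges2 in control (25.1, 11.4, 8.91 and 8.26 RPKM). Libraries of neighbouring genes did not overlap in level except Ptger4 and Ptges2 in TCZ. The order between genes depends on the deposited gene lengths, from 1952 bases (Ptges2) to 6092 (Ptgs1). Ptger2 averaged 0.689 RPKM in TC, 0.0639 in TCZ and 0.203 in control. By RPKM, Ptgs2 ranked 47 and 53 among all genes in the TC libraries, 77 and 63 in the TCZ libraries, and 440 and 449 in the control libraries.

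**Figure D1:**
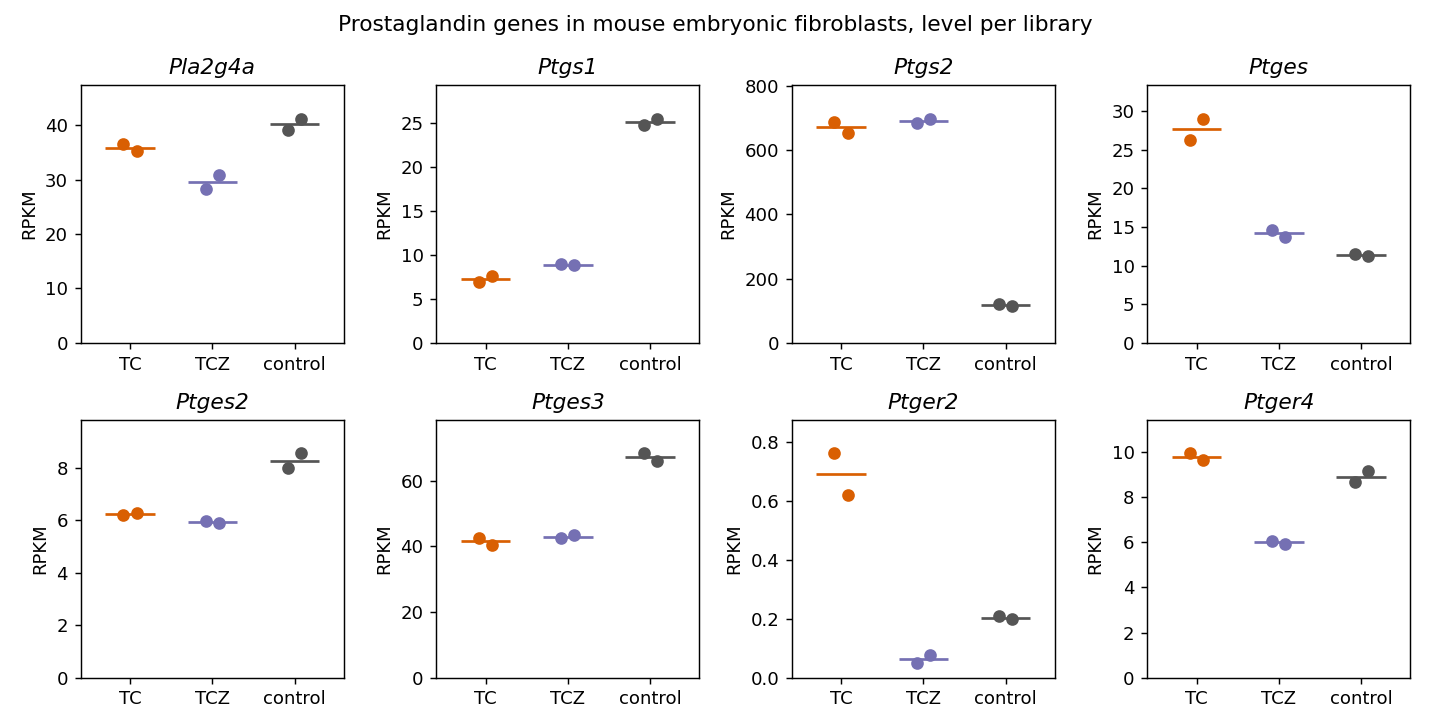
Level of each of the 8 genes in RPKM (vertical axes from 0, a scale per gene) in the 2 TC, 2 TCZ and 2 control libraries; points are libraries and lines group means. Ptgs2 lies at 653 to 699 RPKM in TC and TCZ libraries and at 115 to 120 in control, while Ptgs1 lies at 6.87 to 8.91 in TC and TCZ and at 24.8 to 25.5 in control.

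At the first step, arachidonate release, Pla2g4a was slightly lower in TCZ and not detectably different in TC. Pla2g4a (chr1:149829618-149961290, minus strand, mm10) had 114 and 110 CPM in TC, 94.0 and 97.1 CPM in TCZ, and 114 and 112 CPM in control. The TC and control libraries overlapped, and both TCZ libraries lay below all others. The difference between TC and control did not pass (log2 fold change -0.02, 95% interval -0.16 to 0.13, edgeR adjusted p = 0.859). TCZ was lower than control by a log2 fold change of -0.24 ± 0.07 (SE, adjusted p = 0.00509) and lower than TC by -0.23 ± 0.07 (adjusted p = 0.00894). The difference from TC did not hold without the first TC library (-0.21, adjusted p = 0.124) or without the first TCZ library (-0.21, adjusted p = 0.0637). With scaling by library totals, the TC difference from control passed as well (-0.16, adjusted p = 0.021).

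The cyclooxygenase genes moved in opposite directions in both treatments. Ptgs2 (chr1:150100031-150108234, plus strand) had 3136 and 2980 CPM in TC, 3331 and 3212 CPM in TCZ, and 513 and 455 CPM in control. Every treated library lay far above both control libraries. Ptgs2 rose 6.32-fold in TC (log2 fold change 2.66 ± 0.08 SE, adjusted p = 1.28e-17) and 6.76-fold in TCZ (2.76 ± 0.08, adjusted p = 5.71e-18). A larger absolute fold change was found in 10.8% of tested genes in TC and 13.7% in TCZ. Ptgs2 alone took 0.307% and 0.291% of all counts in TC and 0.305% and 0.312% in TCZ, against 0.0535% and 0.0512% in control.

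Addition of z-VAD-fmk was not accompanied by a detectable difference in Ptgs2. TCZ minus TC was a log2 fold change of 0.10 (95% interval -0.05 to 0.25, adjusted p = 0.266). Both TCZ libraries lay above both TC libraries in CPM, but the groups overlapped in RPKM (685 and 699 in TCZ, 689 and 653 in TC). The difference passed when only genes with 50 counts in 2 libraries were kept (0.13, adjusted p = 0.0248), with a term for the 2 libraries that stand apart (0.15, adjusted p = 0.00218) and without those libraries (0.13, adjusted p = 0.0142).

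Ptgs1 (chr2:36216744-36252275, plus strand) had 42.7 and 47.0 CPM in TC, 59.2 and 55.7 CPM in TCZ, and 144.5 and 138 CPM in control. The 3 groups did not overlap, with control highest and TC lowest. Ptgs1 was 3.15-fold lower in TC than in control (log2 fold change -1.65 ± 0.08 SE, adjusted p = 3.1e-14) and 2.46-fold lower in TCZ than in control (-1.30 ± 0.08, adjusted p = 1.86e-12). TCZ was 1.28-fold higher than TC (0.36 ± 0.08, adjusted p = 0.000427). An unnamed transcript annotated on the opposite strand within Ptgs1 (ENSMUSG00000106933.1) had 2 and 5 counts in TC, 0 and 0 in TCZ, and 41 and 29 in control. Whether counting used strand is not stated, so reads of such overlapping pairs may not be separable.

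The make-up of cyclooxygenase mRNA differed by treatment. Its values rest on the deposited lengths, 4460 bases for Ptgs2 and 6092 for Ptgs1. The deposited start and end of Ptgs1 differ from its RefSeq gene record. Another length would scale the ratio alike in all groups, and would change the shares and the sum as well. The ratio of Ptgs2 to Ptgs1 in RPKM was 100.3 and 86.6 in TC and 76.8 and 78.8 in TCZ, against 4.85 and 4.50 in control. Ptgs2 made up 99.0% and 98.9% of the summed RPKM of both genes in TC, 98.7% and 98.8% in TCZ, and 82.9% and 81.8% in control. The sum itself averaged 678 ± 25.0 RPKM in TC, 701 ± 9.76 in TCZ and 142.5 ± 3.25 in control (SD, n = 2 each).

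**Figure D2:**
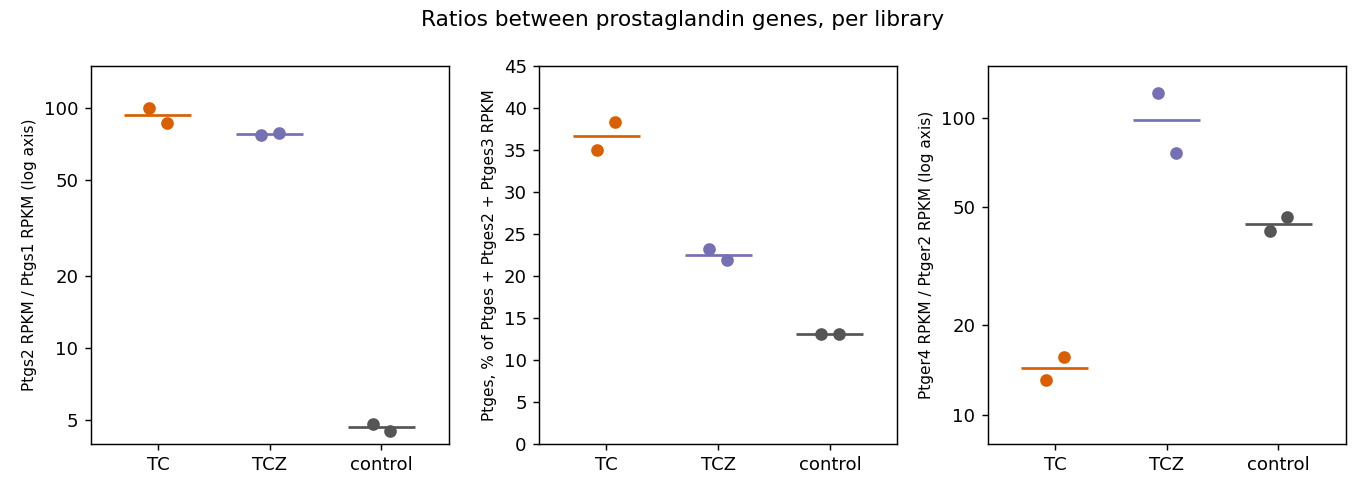
Ratio of Ptgs2 to Ptgs1 (log axis), share of Ptges in the summed RPKM of Ptges, Ptges2 and Ptges3 (percent, from 0), and ratio of Ptger4 to Ptger2 (log axis), in TC, TCZ and control; points are the 2 libraries of each group and lines their means. The first ratio is at or above 76.8 in treated libraries and at most 4.85 in control, the share is ordered TC, TCZ, control, and the third ratio is lowest in TC and highest in TCZ.

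The start region of Ptgs2 is shown because it is the most induced of the 8 genes, beside those of Ptges and Ptger2, the other genes that were higher in TC by more than a log2 fold change of 1. Each sequence runs 5′ to 3′ on the gene's own strand from 250 bases before the RefSeq start to the first 30 bases from that start (RefSeq, GRCm38.p6). Capitals mark matches to the searched motifs.
Ptgs2, chr1:150099781-150100060, plus strand: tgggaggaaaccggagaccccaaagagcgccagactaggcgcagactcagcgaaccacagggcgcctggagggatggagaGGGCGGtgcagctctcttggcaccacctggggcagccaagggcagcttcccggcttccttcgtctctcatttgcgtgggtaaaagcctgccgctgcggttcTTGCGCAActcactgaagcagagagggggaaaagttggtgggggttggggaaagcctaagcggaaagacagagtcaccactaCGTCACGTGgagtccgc
Ptges, chr2:30903268-30903547, minus strand: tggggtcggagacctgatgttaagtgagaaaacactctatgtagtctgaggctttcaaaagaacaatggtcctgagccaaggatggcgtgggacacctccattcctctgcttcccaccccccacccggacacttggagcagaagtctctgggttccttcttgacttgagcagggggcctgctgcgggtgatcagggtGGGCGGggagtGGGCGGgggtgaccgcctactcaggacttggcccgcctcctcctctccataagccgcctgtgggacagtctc
Ptger2, chr14:44987861-44988140, plus strand: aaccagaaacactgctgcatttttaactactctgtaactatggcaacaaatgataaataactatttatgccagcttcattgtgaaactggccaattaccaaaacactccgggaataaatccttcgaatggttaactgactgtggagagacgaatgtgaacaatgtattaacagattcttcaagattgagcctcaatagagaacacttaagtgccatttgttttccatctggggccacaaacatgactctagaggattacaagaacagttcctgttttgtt
Both strands were searched for TGACG (core of the cAMP response element), CACGTG (E-box), TTGCGCAA (C/EBP palindrome), TGANTCA (AP-1), GGGCGG (GC box), GCGNGGGCG (EGR) and TATAAA (core promoter), and for the NF-κB consensus. The Ptgs2 window holds the GC box, the C/EBP palindrome, and, just after the RefSeq start, TGACG on the reverse strand, which overlaps the E-box. Of 32851 such windows in the RefSeq table, the C/EBP palindrome occurs in 59 (0.18%), the E-box in 6.79%, TGACG in 19.9%, the GC box in 34.7%, TGANTCA in 7.46%, GCGNGGGCG in 5.3% and TATAAA in 13.1%. The Ptges window holds the GC box at 2 places and the Ptger2 window holds none of the 8 motifs. No match to the NF-κB consensus, which 7.94% of windows hold, lies in these 3 windows. Bases outside the windows were not searched, so sites further upstream or downstream are not covered. Whether transcription began at the RefSeq start in these cells was not examined. A match describes letters only.

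AU-rich elements in 3′ UTRs are known as a route to rapid mRNA decay, and the one in Ptgs2 is a textbook case. The 30 bases at positions 12 to 41 after its stop codon, printed for their 4 ATTTA copies (capitals), read as follows.
Ptgs2 3′ UTR: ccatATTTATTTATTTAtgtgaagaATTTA
The 3′ UTR of the principal Ptgs2 transcript (GENCODE M21) is 2445 bases long and holds 14 ATTTA copies, or 5.73 per kb, against a median of 1.26 per kb over 13723 tested genes. As many or more copies occur in 2.5% of those genes, and copies as dense or denser in 5.01%. Ptgs1, with 921 bases, and Ptges, with 3106 bases, hold 0 copies. Pla2g4a holds 4 in 443 bases, the densest of the 8 genes at 9.03 per kb, a density reached by 1.38% of those genes. Ptges3 holds 4 in 1186, Ptger2 6 in 1825, Ptger4 5 in 1233 and Ptges2 4 in 3444. For Ptges2 this 3′ UTR is longer than the whole deposited gene length of 1952 bases, so these copies may lie outside the counted bases. Of the genes with 0 copies, Ptges rose in both treatments and Ptgs1 fell in both. Decay was not measured, and a link between ATTTA copies and these changes was not tested.

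Among the prostaglandin E synthases, the inducible enzyme was higher in treated cells and the other 2 were lower. Ptges, which encodes microsomal prostaglandin E synthase-1 (chr2:30889471-30903297, minus strand), had 97.8 and 108 CPM in TC, 58.1 and 51.7 CPM in TCZ, and 40.1 and 36.4 CPM in control. The 3 groups did not overlap, and TCZ lay between TC and control. Ptges rose 2.69-fold in TC (log2 fold change 1.43 ± 0.08 SE, adjusted p = 1.6e-12) and 1.44-fold in TCZ (0.52 ± 0.08, adjusted p = 1.37e-05). It was 1.87-fold lower in TCZ than in TC (-0.90 ± 0.08, adjusted p = 4.61e-09). Summed epithelial markers, given above and mostly Krt19, were also higher in TC than in TCZ and control. Their part in this result was not tested.

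Ptges3 encodes the cytosolic synthase, which is also the HSP90 co-chaperone p23 (chr10:128058928-128077256, plus strand). It had 133 and 127 CPM in TC, 142 and 137 CPM in TCZ, and 201 and 180 CPM in control. Both treatments lay below control without overlap. Ptges3 fell in TC (log2 fold change -0.55 ± 0.07 SE, adjusted p = 1.21e-06) and in TCZ (-0.45 ± 0.07, adjusted p = 2.21e-05). The TCZ difference from TC did not pass (0.10, 95% interval -0.05 to 0.26, adjusted p = 0.244), but did with the 50-count filter (0.14, adjusted p = 0.0345) or a term for the libraries that stand apart (0.16, adjusted p = 0.0225). Gm9769, described as a Ptges3 pseudogene, had 74 and 65 counts in TC, 97 and 29 in TCZ, and 75 and 49 in control. Ptges3l, described as Ptges3-like, had 315 and 299 counts in TC, 375 and 152 in TCZ, and 306 and 195 in control. Ptges3 itself had 6470 and 6313 counts in TC, 6915 and 3312 in TCZ, and 9744 and 5426 in control.

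Ptges2, microsomal prostaglandin E synthase-2 (chr2:32395890-32402740, plus strand), varied least between the treatments. It had 12.4 and 12.5 CPM in TC, 12.7 and 11.9 CPM in TCZ, and 14.9 CPM in both control libraries. Both control libraries lay above all treated ones, while TC and TCZ overlapped. The log2 fold change was -0.26 ± 0.10 in TC (SE, adjusted p = 0.0347) and -0.27 ± 0.11 in TCZ (adjusted p = 0.0296). These calls depended on the setting. The TC call failed in 7 of 16 alternatives: with DESeq2 (adjusted p = 0.185), without the low-count filter (adjusted p = 0.173), without both libraries that stand apart (adjusted p = 0.085), and when any of the first control (-0.25, adjusted p = 0.135), second control (-0.27, adjusted p = 0.0926), first TC (-0.25, adjusted p = 0.131) or second TC library (-0.26, adjusted p = 0.109) was left out. The TCZ call also failed in 7 of 16: with DESeq2 (adjusted p = 0.168), without the filter (adjusted p = 0.0837), with the 50-count filter (adjusted p = 0.0593), without both libraries that stand apart (adjusted p = 0.192), and without the first control (-0.28, adjusted p = 0.103), second control (-0.30, adjusted p = 0.0718) or second TCZ library (-0.23, adjusted p = 0.152). TCZ against TC did not pass (-0.02, 95% interval -0.23 to 0.20, adjusted p = 0.908).

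Ptges took up a larger share of prostaglandin E synthase mRNA in treated cells. The size of the share depends on the deposited lengths, 3647 bases for Ptges, 1952 for Ptges2 and 3063 for Ptges3. Its share of the summed RPKM of the 3 genes was 35.0% and 38.3% in TC, 23.1% and 21.8% in TCZ, and 13.1% in both control libraries. Its ratio to Ptges2 in RPKM averaged 4.43 ± 0.28 in TC, 2.39 ± 0.09 in TCZ and 1.38 ± 0.09 in control (SD, n = 2 each).

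The receptor genes separated TC from TCZ. Ptger2, which encodes EP2 (chr14:44988111-45003820, plus strand), had 3.21 and 2.62 CPM in TC (156 and 130 counts), 0.227 and 0.331 CPM in TCZ (11 and 8 counts), and 0.824 and 0.730 CPM in control (40 and 22 counts). The groups did not overlap: TC was highest and TCZ lowest. Ptger2 rose 3.72-fold in TC (log2 fold change 1.89 ± 0.34 SE, adjusted p = 5.67e-05). TCZ was 10.8-fold lower than TC (-3.44 ± 0.41, adjusted p = 2.79e-07), and 4.06% of tested genes had a larger absolute fold change between these groups. TCZ was also 2.92-fold lower than control (-1.54 ± 0.45, adjusted p = 0.00513), a call that rests on few counts and was lost without the first TCZ library (-1.24, adjusted p = 0.0662). An unnamed transcript on the opposite strand (ENSMUSG00000090709.1) had 0 and 2 counts in TC, 12 and 0 in TCZ, and 4 and 3 in control. Summed epithelial markers, mostly Krt19, were highest in TC as well, and their part was not tested.

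Ptger4, which encodes EP4 (chr15:5233399-5244187, minus strand), showed the same order of groups over a narrower range. It had 33.8 and 32.9 CPM in TC, 22.03 and 20.3 CPM in TCZ, and 27.6 and 27.2 CPM in control, again without overlap. The log2 fold change was 0.28 ± 0.08 in TC (SE, adjusted p = 0.00509) and -0.37 ± 0.09 in TCZ (adjusted p = 0.000866), and TCZ was 1.57-fold lower than TC (-0.65 ± 0.08, adjusted p = 1.02e-06). The TC call did not hold with library totals (0.14, adjusted p = 0.114) or without the first TC library (0.26, adjusted p = 0.0529). Ptger4 exceeded Ptger2 in every library; the ratio of their RPKM was 13.1 and 15.6 in TC, 120.9 and 76.3 in TCZ, and 41.6 and 46.3 in control. The TCZ ratio rests on 11 and 8 counts of Ptger2.

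Counted together, 7 of the 8 genes passed in TC against control (4 higher and 3 lower), where 60.7% of all tested genes passed, 31.6% higher and 29.2% lower. All 8 passed in TCZ against control (2 higher and 6 lower), where 60.1% passed, 31.5% higher and 28.6% lower. In TCZ against TC, 5 passed (1 higher and 4 lower), where 56.1% passed, 28.2% higher and 27.9% lower. With most tested genes passing in each comparison, a count of this size over 8 genes is not a result about them. The median log2 fold change over the 8 genes was 0.13 for TC and -0.32 for TCZ against control, and -0.12 for TCZ against TC, beside 0.03, 0.05 and 0.02 over all tested genes. Scaling by library totals shifts the median of all genes by -0.14, -0.20 and -0.06 in the 3 comparisons. With it, 5079 genes were higher and 6586 lower in TC against control (5857 and 5412 with TMM), and 4556 were higher and 7019 lower in TCZ against control (5851 and 5313 with TMM). The 8 genes then gave 3 higher and 4 lower in TC, since Ptger4 no longer passed and Pla2g4a passed as lower, and their counts in the other comparisons were as before; every difference among them that passed with TMM kept its direction. The comparisons with control share the control libraries.

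**Figure D3:**
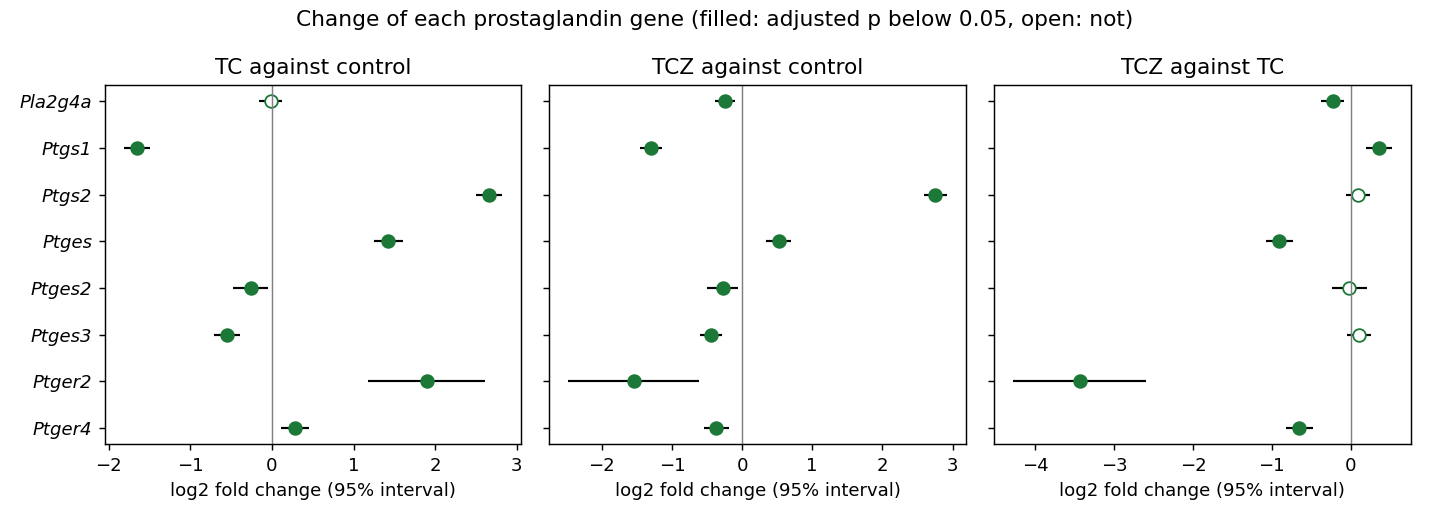
Log2 fold change of each of the 8 genes for TC and for TCZ against control, and for TCZ against TC (horizontal axes, a range per panel), with 95% intervals; filled points pass an adjusted p of 0.05 and open points do not. Ptgs2 and Ptgs1 lie on opposite sides of 0 in both comparisons with control, and Ptger2 lies furthest from 0 in TCZ against TC, at -3.44.

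Transcripts beside Ptgs2 had patterns of their own. Ptgs2os lies on the opposite strand (chr1:150074873-150099874), and its 5′ end is 157 bases from that of Ptgs2, within the window printed above. It had 6.22 and 6.86 CPM in TC, 2.47 and 2.19 CPM in TCZ, and 2.23 and 2.85 CPM in control. TC lay above the other groups, which overlapped. Ptgs2os rose in TC (log2 fold change 1.38 ± 0.20 SE, adjusted p = 3.45e-06), did not pass in TCZ against control (-0.09, adjusted p = 0.744), and was lower in TCZ than in TC (-1.47 ± 0.20, adjusted p = 2.63e-06). Ptgs2os2, also on the minus strand and 50.8 kb past the end of Ptgs2 (chr1:150159043-150164948), had 3.81 and 3.92 CPM in TC, 1.85 and 2.15 CPM in TCZ, and 15.1 and 11.9 CPM in control. It fell in TC (-1.81 ± 0.16, adjusted p = 1.22e-09) and in TCZ (-2.78 ± 0.18, adjusted p = 7.42e-12). Pla2g4a, the other member on this stretch, starts 138.7 kb from Ptgs2 on the opposite strand.

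**Figure D4:**
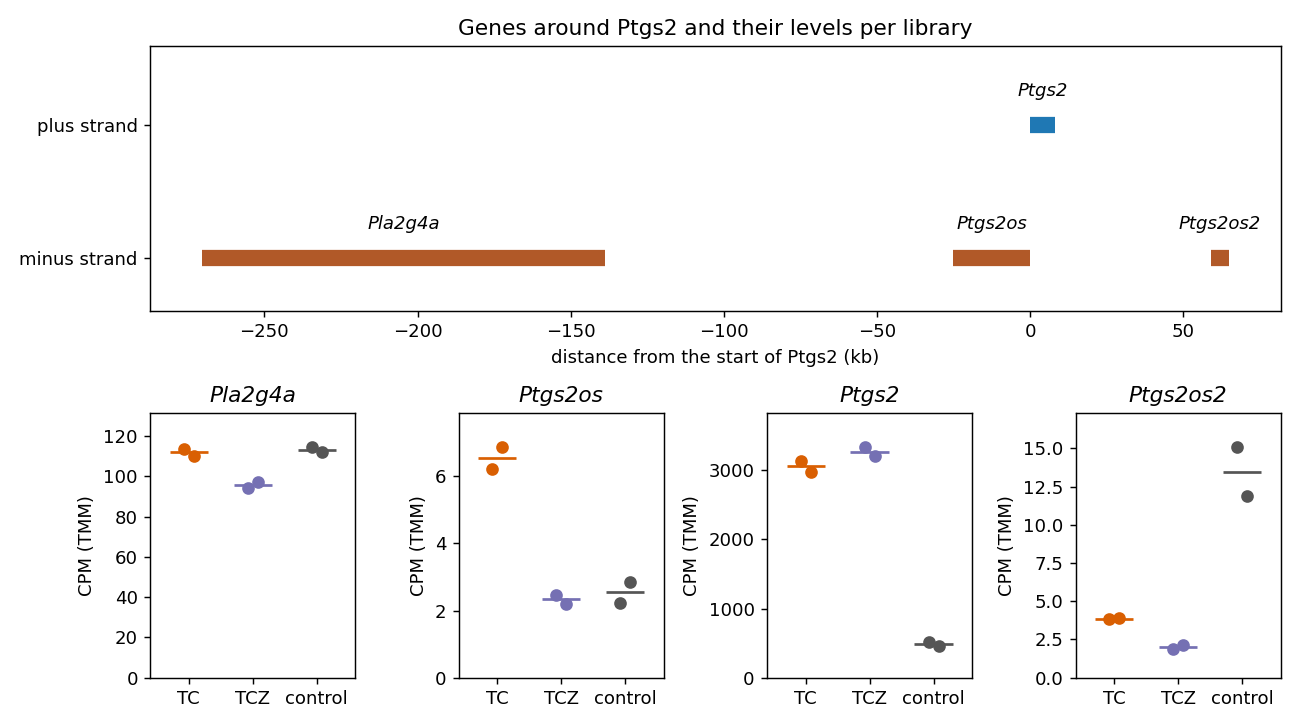
Pla2g4a, Ptgs2os, Ptgs2 and Ptgs2os2 drawn to scale by distance from the start of Ptgs2 (kb) and strand, above their levels in CPM (axes from 0, a scale per gene) in the 2 TC, 2 TCZ and 2 control libraries, with group means as lines. LOC102641173, on the plus strand 42.5 to 46.5 kb from the start of Ptgs2, is not drawn. Ptgs2 is high in TC and TCZ, Ptgs2os is highest in TC, and Ptgs2os2 is highest in control.

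Other genes of the pathway were described by lists chosen by role. Their counts stand beside the 60.7% and 60.1% of all tested genes that passed in TC and TCZ against control and the 56.1% that passed in TCZ against TC, and their medians beside 0.03, 0.05 and 0.02 over all tested genes. The list for arachidonate release, which also takes in Acsl4, had 21 symbols, of which 20 were found in the deposited table and 10 were tested. Of the 10, 1 rose and 4 fell in TC, 1 rose and 4 fell in TCZ, and 6 were higher and 2 lower in TCZ than in TC. Against control, 5 of 10 passing is under the all-gene shares. The median log2 fold change of the list was -0.24 in TC and 0.08 in TCZ against control, and 0.39 in TCZ against TC. Acsl4, the most abundant of the list, is an acyl-CoA synthetase that prefers arachidonate and uses it, so it is not an enzyme of release. Acsl4 had 191.5 and 176.6 CPM in TC, 167.5 and 174.3 in TCZ, and 159.6 and 144.6 in control. It was the 1 gene that passed as higher in TC (log2 fold change 0.27, adjusted p = 0.00311), a call lost with library totals, without the first TC library (0.22, adjusted p = 0.116) and without the second control library (0.20, adjusted p = 0.0617). In TCZ it did not pass (0.17, adjusted p = 0.0605), but it did in 8 of the 16 alternatives. The 1 gene that passed as higher in TCZ was Pla2g4f, a cytosolic phospholipase A2 relative with 5 and 0 counts in TC, 17 and 11 in TCZ, and 3 and 0 in control. That call (adjusted p = 0.018) was lost without the second control (2.61, adjusted p = 0.171), first TCZ (3.54, adjusted p = 0.053) or second TCZ library (3.19, adjusted p = 0.0717). Mgll, monoacylglycerol lipase, averaged lower in TC than in control (-0.48, adjusted p = 3.22e-05) and did not pass in TCZ (-0.008).

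Daglb, another gene of this list and a diacylglycerol lipase, had 3.13 and 3.58 CPM in TC, 6.66 and 7.28 in TCZ, and 12.0 and 11.9 in control. It fell in TC (log2 fold change -1.83 ± 0.14 SE, adjusted p = 2.22e-10) and less far in TCZ (-0.79, adjusted p = 3.92e-05), with TCZ above TC (1.05, adjusted p = 3.59e-06). Its relative Dagla showed the reverse order of treatments: 16.0 and 13.8 CPM in TC, 2.596 and 3.72 in TCZ, and 17.8 and 19.3 in control. Dagla fell in TCZ (-2.61 ± 0.15, adjusted p = 1.04e-12) and was lower in TCZ than in TC (-2.29 ± 0.15, adjusted p = 2.15e-11). Pla2g15, a lysosomal phospholipase, fell in TC (-1.06, adjusted p = 7.75e-10) and in TCZ (-0.71, adjusted p = 5.18e-07).

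For synthases and reductases of other prostanoids, 11 symbols were listed, of which 10 were found in the deposited table and 9 were tested. Of the 9, 1 rose and 4 fell in TC, 1 rose and 3 fell in TCZ, and 3 were higher and 2 lower in TCZ than in TC. In these comparisons 5, 4 and 5 of 9 passed, which is no more than the all-gene shares. The list's medians were -0.54, 0.07 and 0.61 in the same 3 comparisons. Ptgis, prostacyclin synthase, had 34.3 and 39.7 CPM in TC, 19.3 CPM in both TCZ libraries, and 79.9 and 76.6 CPM in control. It fell in TC (log2 fold change -1.08 ± 0.08 SE, adjusted p = 7.83e-11) and in TCZ (-2.02 ± 0.09, adjusted p = 5.23e-15), with no overlap between groups. Cbr1, a carbonyl reductase that can act on prostaglandin E2, averaged 6.56 CPM in TC, 11.6 in TCZ and 16.0 in control and fell in TC (-1.30 ± 0.12, adjusted p = 5.93e-09). Its fall in TCZ (-0.47, adjusted p = 0.002) was lost without the first control library (-0.31, adjusted p = 0.101). The 1 gene that passed as higher in both treatments was Akr1c18, an aldo-keto reductase, with 15 and 19 counts in TC, 40 and 5 in TCZ, and 3 and 1 in control. Its call in TC (log2 fold change 2.71, adjusted p = 0.0163) was lost without the first control (3.27, adjusted p = 0.07) or the second control library (2.42, adjusted p = 0.0877), and its call in TCZ (3.37, adjusted p = 0.00335) without the first TCZ library (1.98, adjusted p = 0.268). Akr1b3, aldose reductase, was lower in TC than in control (-0.54, adjusted p = 1.19e-05) and did not pass in TCZ (0.07), while its relative Akr1b8 did not pass in TC (0.03) and was lower in TCZ (-0.40, adjusted p = 0.00017). Ptgds, a prostaglandin D synthase, had 0 counts in all libraries.

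Of the 6 genes of transport and breakdown, 2 rose and 2 fell in TC, 0 rose and 2 fell in TCZ, and 2 were higher and 2 lower in TCZ than in TC; 4, 2 and 4 of 6 passed, beside 60.7%, 60.1% and 56.1% of all tested genes. Medians over the list were -0.002, -0.15 and -0.33. Slco2a1, the prostaglandin uptake transporter, had 188 and 185 CPM in TC, 72.5 and 69.1 CPM in TCZ, and 82.6 and 81.4 CPM in control. It rose in TC (log2 fold change 1.19 ± 0.07 SE, adjusted p = 2.46e-12) and was lower in TCZ than in TC (-1.40 ± 0.07, adjusted p = 4.4e-13). Its small decrease in TCZ against control (-0.21, adjusted p = 0.0144) was lost without the first control (-0.21, adjusted p = 0.0556) or the second TCZ library (-0.17, adjusted p = 0.125). Kdr was also highest in TC, but Pecam1, Tek and Cdh5 were higher in TCZ than in TC; their part was not tested. Slco3a1, a related transporter, rose in TC (1.67 ± 0.07, adjusted p = 1.98e-14), was lower in TCZ than in TC (-1.76 ± 0.08, adjusted p = 3.06e-14), and did not pass in TCZ against control (-0.09, adjusted p = 0.34). Abcc4, a prostaglandin exporter, fell in TC (-1.30 ± 0.15, adjusted p = 7.81e-08) and in TCZ (-0.54, adjusted p = 0.00267), with 5.00 and 7.42 CPM in TC, 9.87 and 11.4 in TCZ, and 14.7 and 16.1 in control. Ptgr1, prostaglandin reductase 1, was lower in TC than in control (-0.55, adjusted p = 6.99e-05) and did not pass in TCZ (0.004).

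Of 7 other prostanoid receptors listed, Ptger1 and Ptger3 among them, 6 were tested. In TC 0 rose and 3 fell, and in TCZ 2 rose, 1 of them Ptger1, and 2 fell. In TCZ against TC, 1 was higher and 1 lower. In these comparisons 3, 4 and 2 of 6 passed, beside 60.7%, 60.1% and 56.1% of all tested genes. The median log2 fold changes were -1.01, 0.15 and 0.64. Ptgir, the prostacyclin receptor, had 1.98 and 2.31 CPM in TC, 1.32 and 1.199 CPM in TCZ, and 12.3 CPM in both control libraries; its log2 fold change was -2.51 ± 0.17 in TC (SE, adjusted p = 2.71e-11) and -3.27 ± 0.19 in TCZ (adjusted p = 2.12e-12). Ptgfr, the prostaglandin F receptor, fell in TC (-2.47 ± 0.28, adjusted p = 7.24e-08) and in TCZ (-3.25 ± 0.31, adjusted p = 6.27e-09). Tbxa2r, the thromboxane receptor, had 1.01 and 1.33 CPM in TC, 4.68 and 5.83 CPM in TCZ, and 7.15 and 5.84 CPM in control. It fell in TC (-2.48 ± 0.22, adjusted p = 2.12e-09), did not pass in TCZ against control (-0.33, adjusted p = 0.159), and was higher in TCZ than in TC (2.15 ± 0.23, adjusted p = 4.59e-08). The other prostaglandin E2 receptors, named after their values were seen, were low: Ptger1 (EP1) had 24 and 42 counts in TC, 84 and 27 in TCZ, and 12 and 20 in control, and Ptger3 (EP3) had 13 and 1 in TC, 2 and 8 in TCZ, and 4 in both control libraries. Ptger1 passed in TCZ against control (1.74 ± 0.52, adjusted p = 0.00669), but not without the first control (1.12, adjusted p = 0.121) or the first TCZ library (1.34, adjusted p = 0.085), and reached 2.52 without the second control. Ptger3 passed in no comparison.

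**Figure D5:**
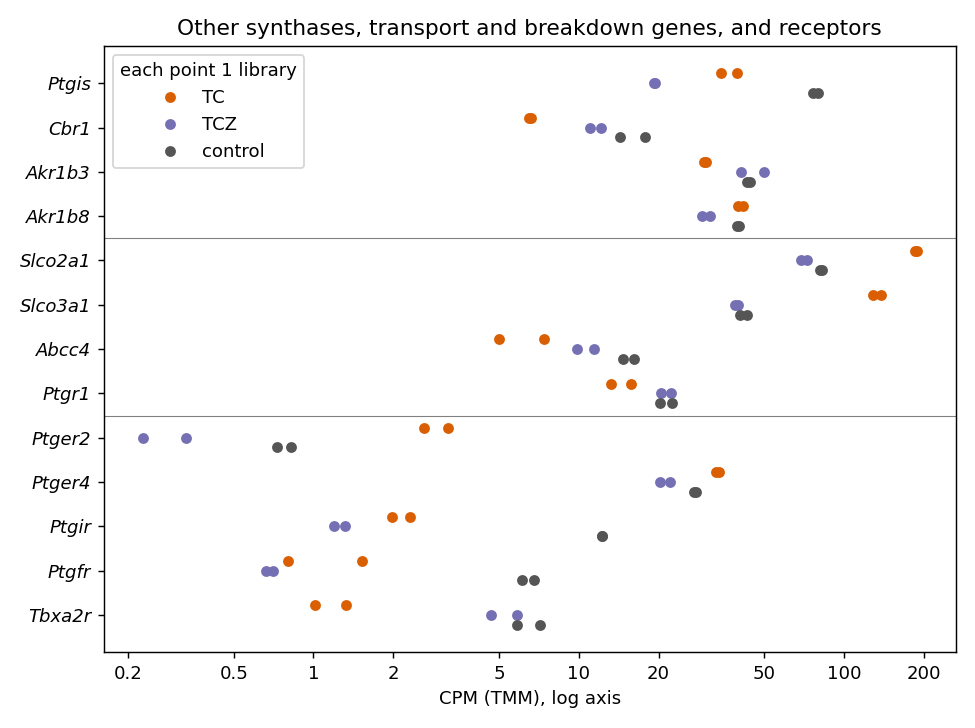
Levels in CPM (log axis) of other synthases and reductases, of transport and breakdown genes, and of prostanoid receptors with Ptger2 and Ptger4, each point a TC, TCZ or control library. Slco2a1, Slco3a1, Ptger2 and Ptger4 are highest in TC, and Ptgis, Ptgir and Ptgfr are highest in control.

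The lipoxygenase branch, which uses the same arachidonic acid, had 9 tested genes of 13 listed: 1 rose and 2 fell in TC, 5 rose and 0 fell in TCZ, and 6 were higher and 0 lower in TCZ than in TC, most at low counts. The 3, 5 and 6 of 9 that passed stand beside 60.7%, 60.1% and 56.1% of all tested genes. Median log2 fold changes were 0.24, 1.62 and 1.75. Alox15, a 12/15-lipoxygenase, had 89 and 104 counts in TC, 310 and 148 in TCZ, and 11 and 23 in control. It rose in TC (log2 fold change 2.12, adjusted p = 3.28e-05) and in TCZ (3.79, adjusted p = 4.05e-09). Its size depended on the control libraries: without the first control the values were 1.36 in TC and 3.02 in TCZ, and without the second 3.09 in TC and 4.75 in TCZ. Alox8 had 1 and 1 counts in TC, 15 and 13 in TCZ, and 0 and 0 in control. The abundant members were Lta4h, leukotriene A4 hydrolase, and Mgst3, a microsomal glutathione transferase. Lta4h averaged 47.1 CPM in TC, 69.9 in TCZ and 65.5 in control and was higher in TCZ than in TC (0.57, adjusted p = 8.12e-07), as was Mgst3 (0.82, adjusted p = 0.000163). Against control, both fell in TC (Lta4h -0.48, edgeR adjusted p = 6.1e-06, and Mgst3 -1.13, adjusted p = 1.8e-06). Neither passed in TCZ against control (0.09 for Lta4h and -0.31 for Mgst3). Ltb4r1, a leukotriene B4 receptor, had 8 and 6 counts in TC, 45 and 28 in TCZ, and 6 and 3 in control, and rose in TCZ (3.16, adjusted p = 0.000596). Summed macrophage and leukocyte markers were also highest in TCZ, where 3 of 8 were higher and 1 lower than in control, and their part was not tested.

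Since the Ptges3 protein is a co-chaperone, HSP90 and its partners were set beside it. Of 17 genes, 4 rose and 10 fell in TC, 4 rose and 4 fell in TCZ, and 11 were higher and 3 lower in TCZ than in TC; 14, 8 and 14 of 17 passed, beside 60.7%, 60.1% and 56.1% of all tested genes. The medians were -0.29, -0.01 and 0.24. Hsp90aa1, the stress-inducible HSP90, rose in TC (log2 fold change 1.08 ± 0.10 SE, adjusted p = 2.31e-09) and in TCZ (1.32, adjusted p = 8.97e-11), opposite in direction to Ptges3. Hsp90ab1, the constitutive HSP90, had 2054 and 2039 CPM in TC, 2518 and 2324 in TCZ, and 1801 and 1683 in control. It rose in TCZ (0.47, adjusted p = 5.11e-06); its difference in TC (0.23, adjusted p = 0.00711) did not hold without the first (0.23, adjusted p = 0.124) or second TC library (0.24, adjusted p = 0.0885). Hspa8, the constitutive HSC70, fell in TC (-1.88 ± 0.11, adjusted p = 9.71e-13) and in TCZ (-1.75, adjusted p = 3.05e-12). The co-chaperones Fkbp4 (-0.77, adjusted p = 1.04e-08) and Ahsa1 (-0.72, adjusted p = 1.13e-07) fell in TC. In TCZ against control, Fkbp4 (0.04) and Ahsa1 (-0.03) did not pass, although Fkbp4 passed as lower with library totals (-0.16, adjusted p = 0.0333).

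Genes with the most similar pattern were found by the Euclidean distance between centred log2(CPM + 0.5) values over the 6 libraries, among genes averaging at least 10 CPM. Nearest to Ptgs2 were Abtb2 (distance 0.15), Klf5 (0.19) and Edn1 (0.30). Nearest to Ptgs1 were R3hcc1, Pgp and Unc5b (0.13 to 0.15), and nearest to Ptges were Denr, Akap12 and Lrig1 (0.12 to 0.15). For Ptger2 the nearest were Parp9 (0.26), Htr2a (0.29) and Ajuba (0.34). Ptger2 itself lies under the 10 CPM minimum, and the added 0.5 CPM compresses its differences: the TCZ against TC log2 fold changes of these 3 genes were -2.02, -2.18 and -2.28, against -3.44 for Ptger2. Ptger4 lay nearest to Msantd2, Rab3ip and Ric8b (0.08 to 0.10), Pla2g4a to Sbf2, Dst and Hipk3 (0.06 to 0.08), Ptges2 to Glipr2, Ppp1r7 and Cpsf1 (0.05 to 0.07), and Ptges3 to Usp10, Cep55 and Nucks1 (0.07 to 0.08).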

How the data were processed

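RNA-seq of 6 mouse embryonic fibroblast libraries was analysed from 1 table. It holds raw counts per gene, deposited by the authors, and RPKM values made by the authors from those counts, gene length and the library total, per the file headers; RPKM recomputed from the counts differed by at most 5e-07. Reads were processed with bcl2fastq, HISAT2 2.1.0 and HTSeq on mm10, per the submitters' processing notes; the strand setting is not given in the sources used here, nor is the annotation release. Poly(A) RNA was selected, per the labels' protocols.

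Counts were filtered with filterByExpr (minimum count 10), scaled by TMM and fitted in edgeR 4.0.16 (R 4.3.3) as 1 group model of all 6 libraries with 3 residual degrees of freedom. P-values are from the quasi-likelihood test with Benjamini-Hochberg adjustment over 18563 genes, threshold 0.05. SE is the absolute log2 coefficient over the square root of F, and intervals are 95%. CPM are TMM-scaled, and their number of libraries limits precision. The biological coefficient of variation was 7.38%. The procedure was also run on simulated counts, with the same spread for all genes and 200 of 17665 genes changed in TC. There 11 unchanged genes passed in TC against control, 0 in TCZ against control and 14 in TCZ against TC. Most tested genes passed in the real data, so that run does not measure their error. Replicate numbers were not used as pairs. DESeq2 1.42.0, limma 3.58.1 voom, other scalings and filters, a replicate block, a term for the libraries that stand apart and leaving out libraries were alternatives.

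The 8 genes and all lists were chosen with earlier results of these data known. Text names the 8 genes, the 3 most abundant genes of each list and the 2 most changed per comparison, and the 3 nearest patterns per gene. Genes on the opposite strand, Gm9769, Ptges3l, Ptgs2os and Ptgs2os2 were taken by position or by gene description, without comparing sequences. Ptgds, Ptger1 and Ptger3 were named after their values were seen. Sequences are from RefSeq (GRCm38.p6), where all 8 genes matched by symbol. Start regions are printed only where the start used for the RefSeq window equals the deposited start of the gene. For Ptges these starts are the same, although the 5′ end of its RefSeq gene record differs.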

Additional observations from a re-analysis of the deposited data

How the results depend on the processing

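Across 16 alternatives, Ptgs2 against control stayed at log2 fold changes of 2.52 to 2.75 in TC and 2.56 to 2.84 in TCZ, Ptger2 in TCZ against TC at -3.67 to -3.13, and Ptges in TCZ against TC at -1.003 to -0.82; Ptgs1, Ptges, and Ptges3 against control, kept their calls. Of the 8 genes, 5 to 7, 7 to 8 and 4 to 5 passed for TC and TCZ against control and for TCZ against TC when single libraries were left out. Deviations of same-numbered libraries correlated at 0.22 for TCZ and control, but at 0.006 for TC and control and -0.041 for TCZ and TC, so the numbers were not taken as pairs; with the replicate block 7, 8 and 5 of the 8 genes passed and 11240, 11166 and 10434 of all genes, against 11269, 11164 and 10413 without it. DESeq2 gave 9912, 9978 and 8807. A left-out library leaves 1 in its group, which is assumed to vary like the others. Signs that turned were all of differences that had not passed. In TC against control they were Pla2g4f with voom (-0.13) and without both libraries that stand apart (-0.27), Akr1b8 with library totals (-0.11), and Pla2g4a without the filter (0.005) and with the 50-count filter (0.004). In TCZ against control they were Mgll with DESeq2 (0.009), voom (0.001), RLE (0.018), 50 counts (0.051) and without both libraries (0.055); with library totals Acsl4 (-0.03), Akr1b3 (-0.13), Ptgr1 (-0.20), Lta4h (-0.11) and Fkbp4 (-0.16, which then passed at an edgeR adjusted p of 0.0333); Ptgr1 without the filter (-0.013); Ahsa1 with 50 counts (0.026) and without both libraries (0.002); and Ptgs2os without both libraries (0.15). In TCZ against TC, Ptges2 gave 0.02 with 50 counts, 0.005 with the term for those libraries and 0.028 without them. With single libraries left out, TC against control ranged from -0.042 to 0.012 for Pla2g4a, -3.67 to 4.13 for Pla2g4f and -0.002 to 0.075 for Akr1b8. TCZ against control ranged from -0.078 to 0.066 for Ptgr1, -0.166 to 0.079 for Ahsa1, -0.017 to 0.081 for Fkbp4, -0.283 to 0.062 for Ptgs2os, -0.098 to 0.204 for Akr1b3 and -0.081 to 0.051 for Mgll. TCZ against TC ranged from -0.74 to 1.25 for Akr1c18, -0.05 to 0.285 for Hspa8 and -0.077 to 0.029 for Ptges2. The cause was not tested. Counts of Ptger2 in TCZ, 11 and 8, limit its precision.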
